A study of Mus musculus with 4 samples.

Results

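Mitochondrial ribosomal protein genes are the nuclear genes, named Mrpl for the large and Mrps for the small subunit, that encode the protein part of the ribosome inside mitochondria. They were taken as every row of the deposited gene table whose symbol is Mrpl or Mrps followed by a number and at most 1 letter, with at least 40 reads over the 4 libraries. All 78 rows with such a symbol met that minimum, of 55401 rows in the table, and 49 belong to the large and 29 to the small subunit by their names. Transcript levels come from RNA sequencing of cultured mouse cells that the labels call female germline stem cells (FGSCs), from the ovary of C57BL/6 mice. The treated group received daidzein, an isoflavone of soy and a ligand of oestrogen receptors, and the control group received DMSO, the solvent, with 2 libraries per group. All cultures grew in MEM-alpha with fetal bovine serum and the growth factors LIF, GDNF, basic FGF and EGF. The labels do not state how much daidzein was used or for how long, nor the age of the mice.

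The mitochondrial ribosome translates the few mRNAs that the mitochondrial genome encodes, all of them for subunits of the respiratory chain and the ATP synthase. Its RNAs are made inside the mitochondrion, while each of its proteins is made in the cytosol from a nuclear gene and imported, so that assembly needs both genomes. Compared with its bacterial relatives it has less RNA and more protein, and many of its proteins have no bacterial counterpart. Inherited defects in several of its genes cause disorders of oxidative phosphorylation in humans. Among factors known to act on nuclear genes for mitochondrial proteins are NRF1, the ETS-family factor GABP (also called NRF2) and YY1.

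The deposited counts summed to 17192077 and 18537134 in the daidzein libraries and to 16230400 and 17119625 in the DMSO libraries. All 8 germ cell markers listed (Ddx4, Dazl, Pou5f1, Dppa3, Nanos3, Prdm1, Ifitm3 and Zp3) had at most 20 reads over the 4 libraries. Their summed level was 0.523 and 0.108 CPM (counts scaled to the library total) in the daidzein libraries, against 0.431 and 0.234 CPM in the DMSO libraries, and Pou5f1 and Dppa3 were at 0. The leukocyte antigen gene Ptprc had 2774 and 3187 reads in the daidzein libraries and 2593 and 2849 in the DMSO libraries. Adgre1, a macrophage gene, had 2006 and 2339 reads with daidzein and 2123 and 2246 with DMSO, while the leukocyte markers Csf1r and Cd3e had 4 and 0 reads in all. Cpa3, a mast cell protease gene, had 13269 and 13583 reads with daidzein and 11556 and 12049 with DMSO. Kit, listed with the mast cell genes, had 10620 and 12205 reads with daidzein and 10574 and 11263 with DMSO. The other mast cell genes listed were low: Fcer1a, Tpsb2 and Mcpt4 were at 0 in every library, and Hdc had 9 reads in all. The data thus go against the germline label, and the cells are called FGSC cultures here only as the submitters' name. Libraries of different groups with the same replicate number differed less than libraries of the same group. Chi-square per degree of freedom over genes was 3.51 between the replicate 1 libraries and 2.23 between the replicate 2 libraries. It was 4.38 between the daidzein libraries and 4.17 between the DMSO libraries. Pairs that shared neither group nor number gave 4.05 (daidzein 1 with DMSO 2) and 4.81 (daidzein 2 with DMSO 1). Sampling noise alone gives about 1 on this measure, so no library was a duplicate of another.

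Stretches of promoter are shown for those members named here for their level or difference whose promoter holds a match to the NRF1 motif GCGCANGC or the ETS motif CCGGAAG on either strand within 100 bases before the RefSeq start. There were 8 such genes among the 19 of 22 named members that have a promoter in RefSeq. Each stretch is 30 bases of GRCm38.p6, given 5′ to 3′ on the gene's strand, and the capitals mark the match.
Mrpl12, NRF1, chr11:120484547-120484576, plus strand: attgtctccgcGCCTGCGCgtcgcaccgcc
Mrpl22, NRF1, chr11:58171620-58171649, plus strand: ggcctcggactGCGCATGCgtatagtcagc
Mrpl22, ETS, chr11:58171600-58171629, plus strand: cttttccggtcCCGGAAGccggcctcggac
Mrpl44, NRF1, chr1:79775972-79776001, plus strand: aagaagcacttGCGCACGCgcagtacacta
Mrpl23, NRF1, chr7:142532959-142532988, plus strand: ccgggggcggtGCGCAAGCagcttacggtg
Mrpl34, ETS, chr8:71464878-71464907, plus strand: aactacagctcCCGGAAGgccccgcggcaa
Mrpl53, ETS, chr6:83109038-83109067, plus strand: ccgcggagccgCCGGAAGcggtccgttcca
Mrps7, NRF1, chr11:115604068-115604097, plus strand: ccgaggaaagtGCGCAGGCtctcatccgtg
Mrps21, NRF1, chr3:95871585-95871614, minus strand: gaaagtccagcGCCTGCGCtcagcaccgaa
The genes with such a match include the highest member by FPKM (explained below), Mrpl12, and the lowest pair by FPKM, Mrpl23 and Mrpl53. The matches shown for Mrpl23, Mrpl53 and Mrps7 lie before the RefSeq start but after the gene's start in the deposited table. Mrpl53 has a further ETS match, on the opposite strand 16 bases before the RefSeq start, whose stretch is not shown. A match is a string of letters and was not tested for binding. The Mrpl22 promoter holds both motifs, NRF1 at 33 and ETS at 53 bases before the start.

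Over all member promoters, the ETS and YY1 motifs were found more often than in the promoters of other expressed genes. RefSeq holds a promoter, taken as 250 bases before to 50 after the gene's start, for 69 of the 78 members and for 8680 genes that entered the test between groups. YY1, searched as AANATGGC, had a match in 30.4% of member promoters and in 9.82% of tested genes. In most of the members with a YY1 match it lay after the start, in the last 50 bases of the window, on the gene's strand. Where the YY1 matches of tested genes lie was not examined. ETS had a match in 34.8% of member promoters against 20.9% of tested genes, and NRF1 in 30.4% against 22.2%. At least 1 of these motifs was present in 69.6% of member promoters, 64.9% of cytosolic ribosomal protein promoters and 43.9% of tested genes. Of all 27025 promoters in the table, 6.20% held the YY1, 9.15% the ETS and 10.2% the NRF1 motif. Large subunit promoters held the NRF1 motif in 34.9% and the ETS motif in 32.6%, and small subunit promoters in 23.1% and 38.5%.

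Other motifs were not more frequent in member promoters than in those of tested genes. The Sp1 motif GGGCGG matched 49.3% of member promoters, 66.5% of tested genes and 35.98% of all promoters in the table. Median GC content was 58.3% in member promoters and 61.3% in tested genes. The E-box CACGTG was found in 7.25% against 10.6%, CCAAT in 39.1% against 39.6% and TATAAA in 5.80% against 6.36%. Promoters of the cytosolic ribosomal protein genes, of which 57 of 78 have an entry, held the ETS motif in 38.6%, the YY1 motif in 17.5% and the NRF1 motif in 14.0%. All motifs were searched on both strands, and matches of different motifs may overlap. These shares are descriptions with no test of the difference.

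**Figure D1:**
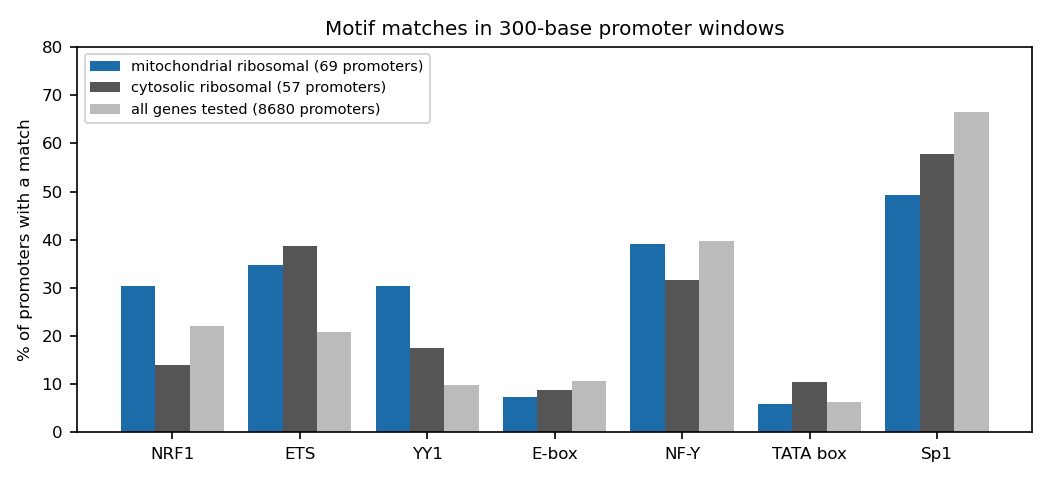
Share of promoters (y axis, %) with a match to each of 7 motifs (x axis; NF-Y stands for CCAAT) in windows of 300 bases, for the mitochondrial ribosomal protein genes, the cytosolic ribosomal protein genes and all genes tested that have a RefSeq promoter. The YY1 bar is 30.4% for the mitochondrial ribosomal protein genes and 9.82% for all genes tested, and the Sp1 bar is 49.3% against 66.5%.

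The 78 genes lie on 17 chromosomes, all of them autosomes, with 11 members on chromosome 11. Another gene starts within 1000 bases on the opposite strand, pointing away, for 23 of the 78 members (29.5%), against 1524 of 11591 genes that meet the same read minimum (13.1%). Several of these neighbours also encode mitochondrial proteins. Mrps12 (GRCm38, chromosome 7, 28739641 to 28741820) starts 172 bases from Sars2, the mitochondrial seryl-tRNA synthetase gene. Mrpl36 (chromosome 13, 73328513 to 73332178) starts within Ndufs6, a complex I gene, with an overlap of 29 bases, and Mrps27 (chromosome 13, 99344786 to 99415562) starts 81 bases from Ptcd2. The remaining pairs join members to genes of other kinds, such as Mrpl40 and the histone chaperone gene Hira at 175 bases and Mrpl32 and the proteasome gene Psma2 at 75 bases.

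The mitochondrial ribosomal protein genes were expressed well above the typical gene in all 4 libraries. Level is given as the authors' FPKM, read counts scaled to the exonic length of the gene and to the library total, averaged over the 4 libraries. The median member stood at 30.8 FPKM, with an interquartile range of 16.5 to 58.0 FPKM, against 7.07 FPKM for all 11700 genes tested, and 82.4% of tested genes lay below the median member. Of the 78 members, 73 were above the median of tested genes, 69 were above 10 FPKM, 7 were above 100 FPKM and 4 were under 5 FPKM. The 78 cytosolic ribosomal protein genes had a median of 207 FPKM. The highest member was 179-fold above the lowest.

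The large subunit median was 33.2 FPKM and the small subunit median 24.2 FPKM, and the ranges overlapped almost wholly. The gap was smaller on another length scale. Exonic length, the sum over all annotated exons of a gene, is far longer than the longest coding transcript for some members, by at least 3 times for 8 of them. Divided by the longest coding transcript, a scale chosen after the data had been seen, the medians were 50.3 for the large and 49.7 for the small subunit. Median reads per gene were 1396 for the large and 1285 for the small subunit. Mrpl33, with an exonic length of 7326 bases and a coding transcript of 478 bases, stood at 6.38 FPKM on the deposited scale and at 97.7 on the transcript scale. Over the 78 members FPKM and exonic length had a Spearman correlation of -0.73, and length enters FPKM itself. Of the 10 highest members by FPKM, 7 were also among the 10 highest on the transcript scale, and of the 10 lowest 8 were.

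**Figure D2:**
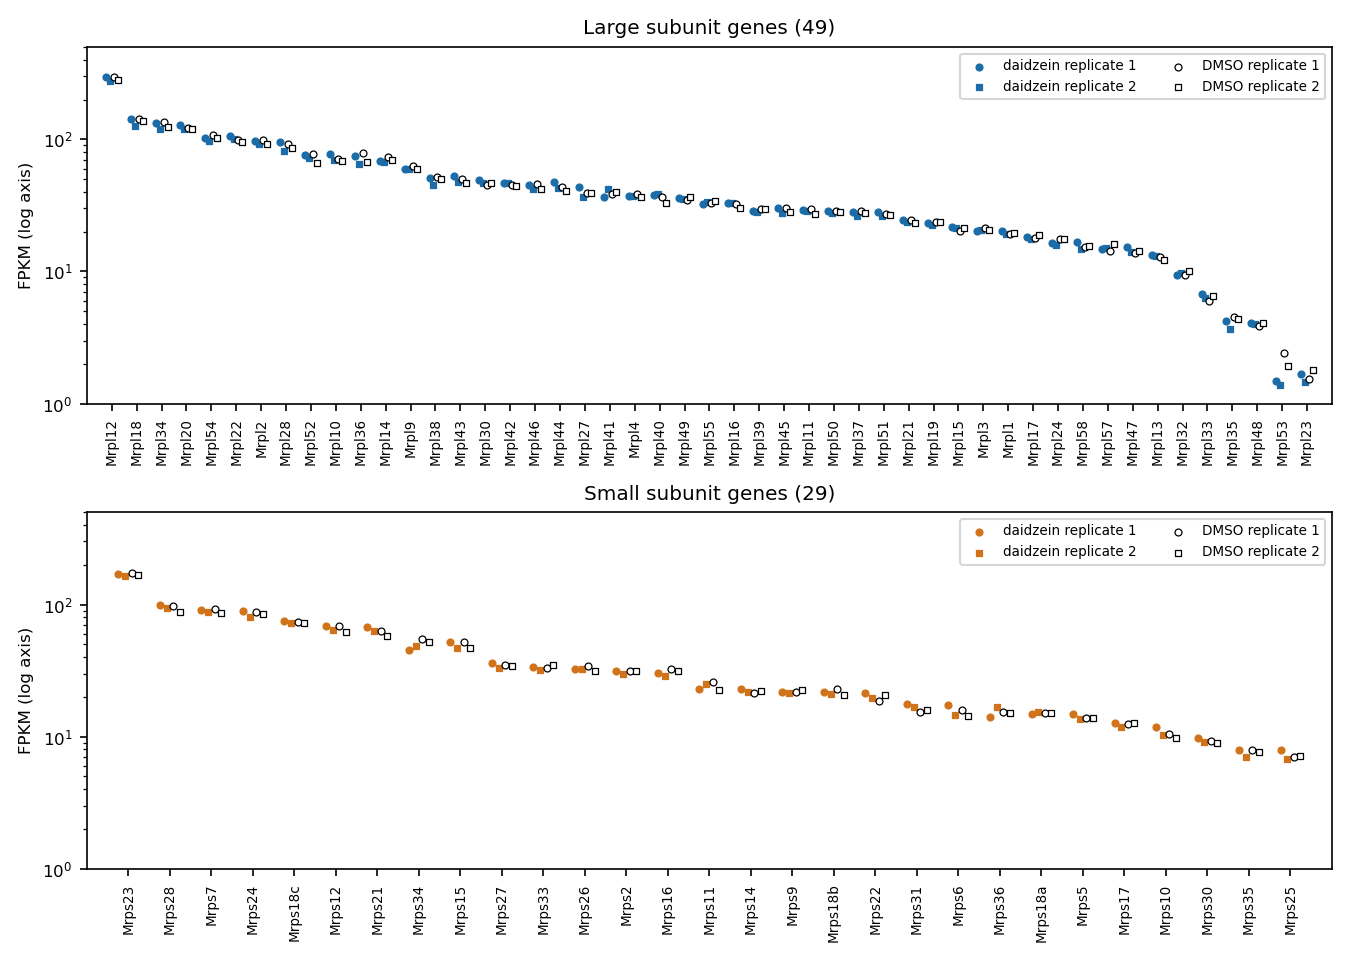
FPKM (y axis, log scale) of each large subunit gene (upper panel) and small subunit gene (lower panel), ordered by mean level; filled symbols are the daidzein libraries and open symbols the DMSO libraries, circles replicate 1 and squares replicate 2. The 4 points of a gene lie close together beside the 179-fold range between genes, and the highest gene, Mrpl12, lies between 276 and 298 FPKM in all 4 libraries.

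Mrpl12 (chromosome 11, 120484613 to 120489065, plus strand) was the highest member. It forms the flexible stalk that recruits translation factors, and its human protein has also been reported to bind the mitochondrial RNA polymerase. It stood at 296 and 276 FPKM in the daidzein libraries and at 298 and 282 FPKM in the DMSO libraries. The groups overlapped, and in each group replicate 1 was the higher library. Mrpl18, a protein of the central protuberance, stood at 141 and 127 FPKM with daidzein and at 143 and 138 FPKM with DMSO. Mrpl34 (chromosome 8, 71464959 to 71465747), the third gene of the large subunit by FPKM, stood at 132 and 119 FPKM with daidzein and at 136 and 125 FPKM with DMSO. Mrpl18 was above Mrpl34 in each of the 4 libraries, although their ranges over libraries overlapped. Mrpl20 followed at a mean of 123 FPKM and Mrpl54 at 103 FPKM, both named after their values were seen.

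In the small subunit the highest member was Mrps23, with 171 and 165 FPKM in the daidzein libraries and 174 and 168 FPKM in the DMSO libraries. Mrps28 stood at 99.8 and 94.7 FPKM with daidzein and at 98.3 and 87.6 FPKM with DMSO. Mrps7, a head protein with a bacterial counterpart, stood at 91.4 and 87.1 FPKM with daidzein and at 93.0 and 85.6 FPKM with DMSO. Mrps23 was above every library of the next pair, whereas Mrps28 and Mrps7 overlapped. At the low end Mrps25 averaged 7.23, Mrps35 7.64 and Mrps30 9.33 FPKM.

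By FPKM the lowest members were Mrpl23, Mrpl53 and Mrpl48, all of the large subunit. Mrpl23, a protein at the exit of the peptide tunnel, had 140 and 131 reads with daidzein and 121 and 150 with DMSO, which is 1.67 and 1.45 FPKM against 1.53 and 1.79 FPKM. On the transcript scale its level was 10.7, above those of Mrpl53, Mrpl35, Mrpl48 and Mrps25, against 1.61 by exonic length. A pseudogene row, Mrpl23-ps1, is near-identical over 68.9% of its transcript and had 71 reads in all. Mrpl53 had 20 and 20 reads with daidzein and 31 and 26 with DMSO, 97 in total, the fewest of any member and above the minimum of 40. Exons of Gm42688 cover 88.0% of its exonic length, and that gene had 250 reads in all. Mrpl48, of the central protuberance, averaged 3.99 FPKM. In all, 22 members (13 large and 9 small) have either a near-identical copy elsewhere or exons that overlap another gene, so that their counts are uncertain. Whether reads were counted by strand is not stated.

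By FPKM on exonic length, members with a bacterial counterpart and members specific to mitochondria had close medians in the large subunit and unlike ones in the small. This depended on the length used. On the transcript scale the members with a bacterial counterpart had the higher median in both subunits, and the large subunit medians were not close. In the large subunit the medians were 33.2 FPKM for 29 members with a bacterial counterpart and 32.4 FPKM for 20 specific members. In the small subunit they were 30.8 FPKM for 16 and 20.0 FPKM for 13 members. The proteins of Mrps18a and Mrps30 sit in the large subunit despite their names, and with these moved there are 51 large and 27 small members. Mrps36, kept here under the small subunit by its name, encodes a protein also known as a subunit of the alpha-ketoglutarate dehydrogenase complex.

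No mitochondrial ribosomal protein gene passed the test between daidzein and DMSO. Genes were tested by edgeR's quasi-likelihood test at a Benjamini-Hochberg adjusted p under 0.05 over all 11700 genes, which called 2 genes (0.0171%), and every member had an adjusted p of 1.00. Separate cultures for the replicates are not stated in the labels, so the p-values rest on a spread between libraries that may be technical. At an unadjusted p under 0.05 there was 1 member of 78 (1.28%), against 341 of all genes (2.91%). DESeq2 also called no member, with 1 (1.28%) at an unadjusted p under 0.05, against 0.69% of all genes. The test of limma on FPKM called none either, with 2 (2.56%), against 3.94% of all genes. Fewer reads of a gene can come from fewer cells of a type or from less RNA per cell, which cannot be told apart in these bulk samples.

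The differences were small beside their intervals. These intervals rest on the same spread between libraries as the p-values. They bound a treatment difference only if the replicates are separate cultures. Of the 78 members, 36 were higher and 42 lower with daidzein, with median log2 differences (daidzein minus DMSO) of -0.0081 in the large and 0.0004 in the small subunit, against -0.0027 over all genes tested. In the large subunit 21 were higher and 28 lower, and in the small subunit 15 were higher and 14 lower. The absolute log2 difference was under 0.1 for 69 members, and for 66 the whole 95% interval lay within 1.2-fold of equality. The interval included equality for 77 members. Both daidzein libraries lay above both DMSO libraries for 7 members (8.97%), against 14.7% of all genes tested, and below them for 9 members (11.5%), against 15.0%. By subunit these were 6 above and 7 below in the large, and 1 above and 2 below in the small subunit.

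**Figure D3:**
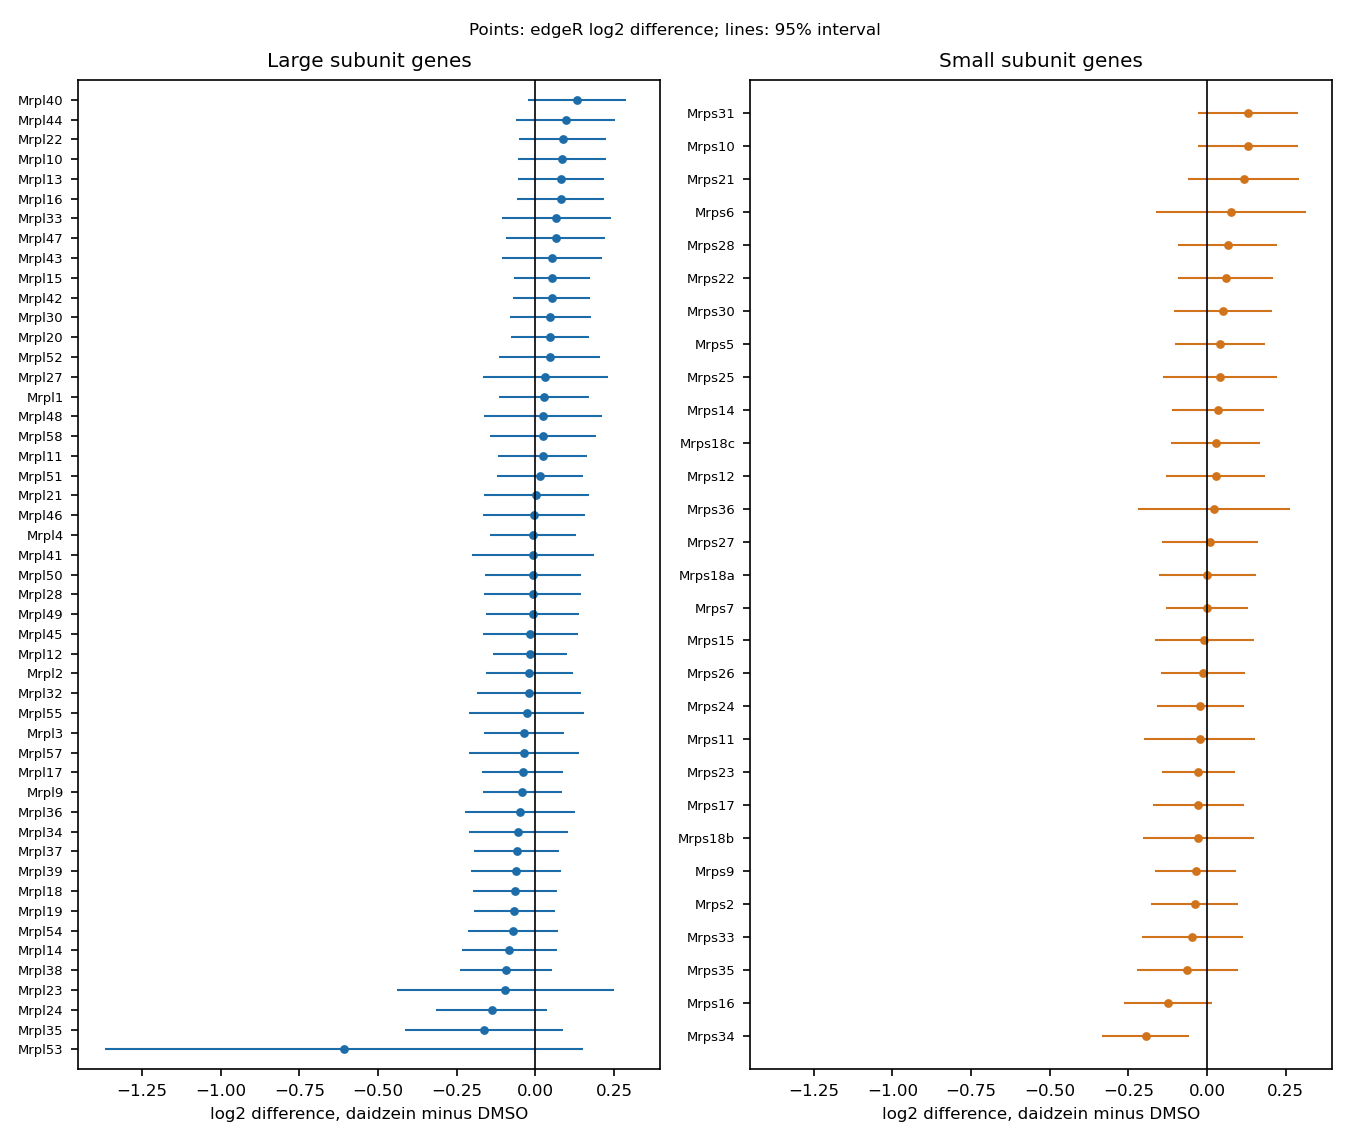
Log2 difference between daidzein and DMSO from edgeR's fit (x axis) for each large subunit gene (left) and small subunit gene (right), with 95% intervals as lines. Of the 78 intervals 77 include 0, the exception is Mrps34, and the widest belongs to Mrpl53.

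Summed over the members, the groups differed by less than the spread between replicates. The members together took 7313 and 6873 CPM in the daidzein libraries and 7240 and 6959 CPM in the DMSO libraries, where CPM of genes in the test also carries the TMM scaling. These are means of 7093 ± 311 and 7099 ± 199 CPM (SD, n = 2 each). The large subunit sum was 4797 and 4506 CPM with daidzein and 4738 and 4561 CPM with DMSO, a ratio of 1.00 (daidzein over DMSO). The small subunit sum was 2516 and 2367 CPM with daidzein and 2502 and 2397 CPM with DMSO, a ratio of 0.997. Large over small was 1.907 and 1.903 in the daidzein libraries and 1.894 and 1.903 in the DMSO libraries, with means of 1.905 ± 0.0024 and 1.898 ± 0.0063. The groups did not overlap in this ratio but their means differed by only 1.0036-fold, with the nearest libraries at 1.9034 for daidzein and 1.9027 for DMSO. On summed FPKM the sign turned, at 0.997-fold.

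**Figure D4:**
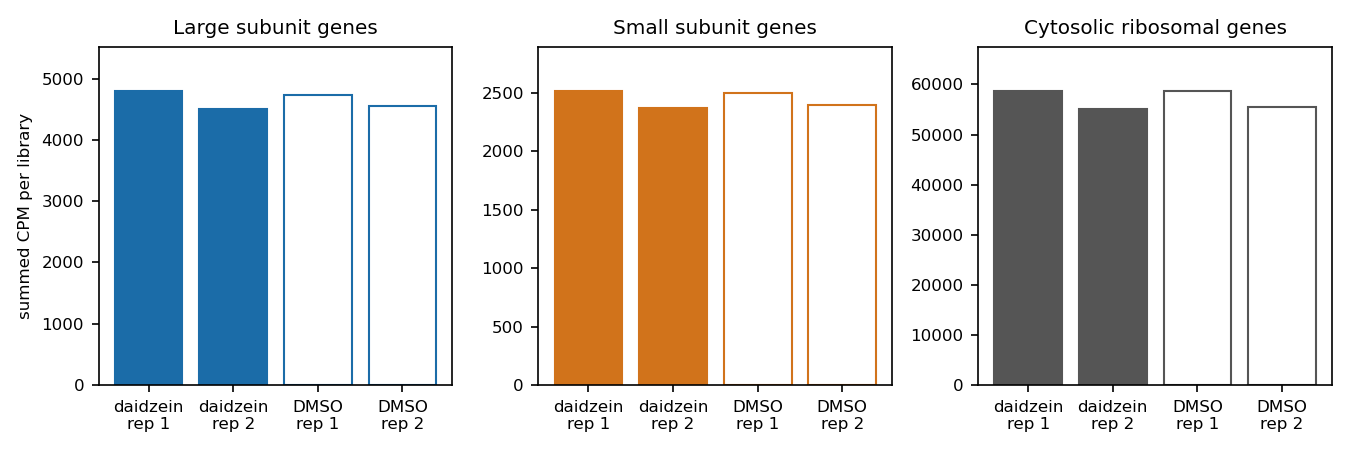
Summed CPM (y axis, from 0) of the large subunit genes, the small subunit genes and the cytosolic ribosomal protein genes in each library (x axis; filled bars daidzein, open bars DMSO). The daidzein and DMSO bars of a panel overlap in height, and replicate 2 is below replicate 1 in both groups.

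In the stalk and its base, Mrpl10, Mrpl11 and Mrpl12 had folds (daidzein over DMSO) of 1.06, 1.02 and 0.988. Mrpl12 averaged 439 ± 24.9 CPM with daidzein and 444 ± 20.0 CPM with DMSO (SD, n = 2 each), with a 95% interval of the fold of 0.910 to 1.07. Around the peptidyl transferase centre, where the peptide bond forms, Mrpl2 stood at 0.987, Mrpl16 at 1.06 and Mrpl27, whose bacterial counterpart reaches towards the tRNA ends, at 1.02. At the tunnel exit Mrpl22 had 1795 and 1828 reads with daidzein and 1573 and 1614 with DMSO. After scaling this was 105 and 98.2 CPM against 97.4 and 94.0 CPM, so the groups did not overlap, with a fold of 1.06 (0.965 to 1.17, unadjusted p of 0.206 by edgeR's quasi-likelihood test). Its neighbour at the exit, Mrpl24, went the other way, with 36.9 and 35.6 CPM with daidzein and 39.9 and 39.9 CPM with DMSO. That is a fold of 0.908 (0.804 to 1.03). Mrpl45, which anchors the ribosome to the inner membrane, stood at 0.989, and Mrpl44 at 1.07 (0.958 to 1.19).

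In the central protuberance Mrpl40 had the most positive difference of the large subunit. It had 66.9 and 67.5 CPM in the daidzein libraries and 64.4 and 58.3 CPM in the DMSO libraries. The groups did not overlap, and the fold was 1.10 (0.984 to 1.22), with an unadjusted p of 0.0915 and an adjusted p of 1.00 by edgeR's quasi-likelihood test. The other proteins of the protuberance lay on both sides of equality, with folds of 0.957 for Mrpl18, 0.938 for Mrpl38, 0.998 for Mrpl46, 1.02 for Mrpl48 and 1.03 for Mrpl52. Mrpl58, a peptidyl-tRNA hydrolase that rescues stalled ribosomes and is also a structural subunit, stood at 1.02.

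The most negative folds of the large subunit were those of Mrpl53, at 0.656 (0.387 to 1.11), and Mrpl35, at 0.893 (0.751 to 1.06). Mrpl53 rested on 20 to 31 reads a library. Mrpl35 had 301 and 285 reads with daidzein and 304 and 309 with DMSO, also among the lowest of the family. Both had daidzein libraries below the DMSO libraries after scaling. Their intervals include equality and are the wide ones of the large subunit together with that of Mrpl23.

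In the small subunit, proteins of the decoding centre and the mRNA path lay close to equality. Mrps12, at the decoding centre, had a fold of 1.02, Mrps5 of 1.03 and Mrps2 of 0.973. Among head proteins, Mrps7 stood at 0.999 and Mrps35 at 0.957. Mrps31, a head protein specific to mitochondria, had 998 and 1020 reads with daidzein and 825 and 898 with DMSO. That is 58.4 and 54.8 CPM against 51.1 and 52.3 CPM, the groups did not overlap, and the fold was 1.09 (0.980 to 1.22). Mrps10 had the same fold of 1.09, with 96.0 and 82.8 CPM in the daidzein libraries and 84.7 and 78.6 CPM in the DMSO libraries, which overlapped. Mrps21 stood at 1.08 (0.959 to 1.23).

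Mrps34 (chromosome 17, 24895116 to 24897502, plus strand) was the member with the smallest p. It encodes a body protein whose loss in humans and mice impairs small subunit stability. It had 1609 and 1857 reads in the daidzein libraries and 1844 and 1854 in the DMSO libraries, which is 94.2 and 99.7 CPM against 114 and 108 CPM. Both daidzein libraries were the lower, and the fold was 0.873 (0.794 to 0.961). The unadjusted p was 0.00787 and the adjusted p 1.00 by edgeR's quasi-likelihood test. Exons of Mapk8ip3, on the opposite strand, cover 63.4% of its exonic length. That gene had 966 and 1226 reads with daidzein and 1116 and 1181 with DMSO, a fold of 0.888 with an unadjusted p of 0.0434 in edgeR's fit. Reads from the shared stretch cannot be told apart.

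Other body proteins did not share the size of this difference. Mrps16, mutated in human mitochondrial translation disorders, had 87.0 and 81.8 CPM in the daidzein libraries and 93.6 and 90.3 CPM in the DMSO libraries. The groups did not overlap, with a fold of 0.918 (0.833 to 1.01) and an unadjusted p of 0.0800 in edgeR's fit. Mrps22, another such disease gene, stood at 1.04, and Mrps27, a pentatricopeptide repeat protein that sits beside Mrps34, stood at 1.01. The 3 Mrps18 paralogs, which bind at different places of the 2 subunits, had folds of 1.00 for Mrps18a, 0.981 for Mrps18b and 1.02 for Mrps18c.

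The members differed between replicate numbers more often than between treatments. Both replicate 2 libraries lay below both replicate 1 libraries for 40 of the 78 members (51.3%), against 21.8% of all genes tested, and above them for 3 members (3.85%), against 22.0%. The level was lower in replicate 2 than in replicate 1 for 70 members in the daidzein group and for 57 in the DMSO group, and for 52 in both. Over all genes tested, 49.5% were lower in the daidzein group and 49.9% in the DMSO group. The median log2 difference of replicate 2 from replicate 1, on CPM plus 0.5, was -0.0912 with daidzein and -0.0545 with DMSO, against 0.0012 and 0.0005 over all genes. Both subunits took part, with 23 large and 17 small members wholly below. The sizes were not shared gene by gene: over the 78 members Pearson's r between the groups was 0.089 and Spearman's rho 0.12, where all points share the same 4 libraries.

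Cytosolic ribosomal protein genes moved in the same direction, with 47 of 78 (60.3%) wholly lower and 3 wholly higher in replicate 2. Their summed level was 58662 and 55024 CPM in the daidzein libraries and 58671 and 55501 CPM in the DMSO libraries. In both groups replicate 2 was the more deeply sequenced library. Over all genes tested the same replicate difference had a Spearman correlation with exonic length of 0.24 with daidzein and 0.26 with DMSO, and with GC content of -0.12 and -0.31. Over the 78 members the correlation with exonic length was 0.053 with daidzein and 0.46 with DMSO, and with GC content -0.12 and -0.55, so the groups were unlike in both. Median exonic length was 2394 bases for the members and 4192 bases for genes with the same read minimum. The part of depth, length and GC content in the replicate difference was not tested.

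**Figure D5:**
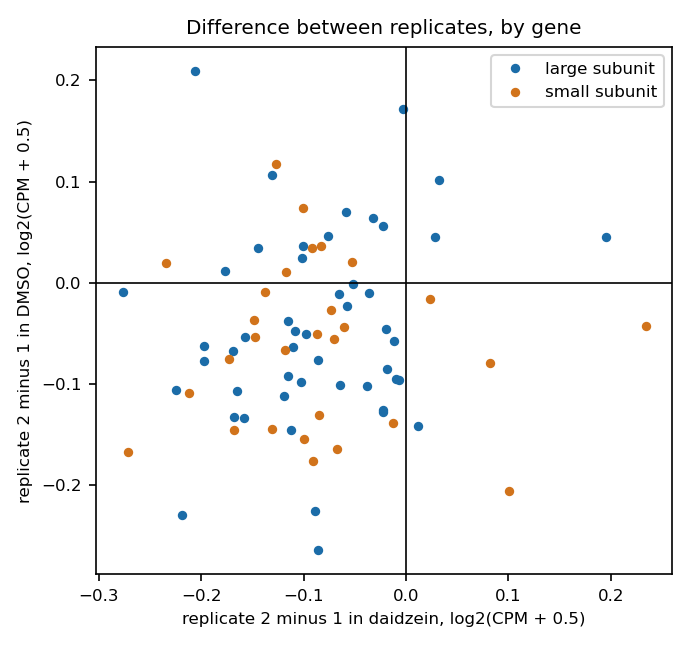
Difference of replicate 2 from replicate 1 in log2(CPM + 0.5), in the daidzein group (x axis) and the DMSO group (y axis), 1 point per gene, blue for large and orange for small subunit genes. Most points, 52 of 78, lie at the lower left, where replicate 2 is lower in both groups.

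None of the genes around the mitochondrial ribosome that were listed with it passed the test either. The 5 proteins of the mitochondrial ribosome with other names had 2 higher and 3 lower members. Their folds were 1.09 for Chchd1, 1.06 for Ptcd3, 0.991 for Dap3, 0.934 for Aurkaip1 and 0.929 for Gadd45gip1. Of 28 listed genes for assembly and rRNA modification 26 were tested, of which 10 were higher and 16 lower, with a median log2 difference of -0.0434. The smallest unadjusted p values of that list in edgeR's fit belonged to the methyltransferase gene Mettl15, with a log2 difference of 0.38 and a p of 0.0661, and the helicase gene Dhx30, at 0.931-fold with a p of 0.0973. Mettl15 had 107 and 98 reads with daidzein and 72 and 75 with DMSO, so the groups did not overlap.

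Of 15 tested translation factors (16 listed) 8 were higher and 7 lower. Taco1, an activator of translation of the mitochondrial Co1 mRNA, had 33.5 and 31.8 CPM with daidzein and 35.6 and 38.9 CPM with DMSO, a fold of 0.875 (0.769 to 0.997). Mtif2, the initiation factor, stood at 1.12 (0.981 to 1.29). Of 20 tested genes for mitochondrial tRNA charging 7 were higher and 13 lower, with a median of -0.0252 and Tars2 at the smallest p with a fold of 0.916. Of 10 genes of mitochondrial DNA maintenance and transcription 7 were higher and 3 lower, with a median of 0.0652, and Tfb2m, a transcription initiation factor, stood at 1.18 (0.988 to 1.41). Among 9 tested regulators of mitochondrial biogenesis (10 listed) 4 were higher and 5 lower. Of these, Esr1, an oestrogen receptor gene, had 59 and 71 reads with daidzein and 37 and 51 with DMSO. Its fold was 1.38 (0.958 to 1.98), with an unadjusted p of 0.0805 by edgeR's quasi-likelihood test, and its mean level was 0.23 FPKM. Ppargc1a had 0 reads in all 4 libraries.

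The mRNAs that this ribosome translates were higher with daidzein in 11 of 12 tested cases (13 listed), with a median log2 difference of 0.18 and none called, while 51.3% of all genes tested were lower. In 8 of the 12 (66.7%) both daidzein libraries lay above both DMSO libraries, against 14.7% of all genes, and in 8 the unadjusted p of edgeR's test was under 0.05, against 2.91% of all genes. These mRNAs come from the same genome and were counted in the same libraries, so the 8 cases are not separate observations. Their reads over all libraries ran from 51 for mt-Atp8 to 421764 for mt-Co1, and the reason for the low totals was not tested. Under 2 of the alternatives mt-Nd6 and mt-Nd2 passed the adjusted threshold. The sum of the 12 mRNAs was 16339 and 16275 CPM with daidzein and 14360 and 15536 CPM with DMSO, a ratio of 1.09. For the summed nuclear genes of the ribosome the ratio was 0.999. The difference between these ratios was not tested.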

How the data were processed

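RNA sequencing libraries of FGSC cultures, 2 with daidzein and 2 with DMSO, were grouped by their titles. The values in the deposited table are raw counts for each gene (whole numbers) and the authors' FPKM. Of 65326 FPKM values with a read, 100% lay within 0.01 of the count divided by exonic length and library total on the FPKM scale. Tools and builds named in the submitters' processing notes, without roles, are mm9, DESeq2, HTSeq 0.6.1 and HISAT2 2.0.1. Coordinates in the table match GRCm38, since 55141 of 55401 rows have a GENCODE M21 identifier, and the start was equal for 99.6% of them.

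The main test was that of edgeR 4.0.16 under R 4.3.3 (quasi-likelihood F test, TMM normalization, default filterByExpr, 11700 genes, Benjamini-Hochberg adjusted p of 0.05). CPM values of members and gene lists are scaled by TMM, while those of cell type markers are scaled to the library total alone. TMM factors ran from 0.995 to 1.01, and intervals are 95% intervals from this fit. Library totals ran from 16230400 to 18537134. The steps were tested on simulated data. Alternatives were DESeq2 1.42.0, limma 3.58.1 on log2(FPKM + 1), other filters and prior counts, robust estimation, removal of GC and length trends, a replicate block and each library left out. A copy is a blastn 2.17.0 hit with 95% identity that covers a share of 0.5 or more of the transcript, and overlaps count from 10% of exonic length.

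The members and lists were chosen with earlier results of these data known. Named members are, in each subunit, the 3 highest and 3 lowest by FPKM and the 3 most positive and 3 most negative differences. Also named in each subunit are up to 2 of each direction with the smallest p among those whose groups do not overlap. Over all members, the 2 with the fewest counts and examples of each structural role were named. The other proteins of the mitochondrial ribosome and up to 3 genes of each other list with the smallest p were also named. Esr1 is such a gene. Ppargc1a, overlap partners and neighbours were named for their place. Further names were picked with values in view. Promoters are RefSeq's on GRCm38.p6.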

Additional observations from a re-analysis of the deposited data

How the results depend on the processing

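No member passed the test under any alternative: in 1013 recomputed member values none crossed the threshold or was called with the opposite sign. Leaving out a library changed the sign of the difference for 52 of 78 members, and 26 kept their sign under every alternative run for them. For Mrps34 the log2 difference lay between -0.24 and -0.16 when any library was left out. The count of all genes called, 2, was 1 with DESeq2, 1 with a filter of 5 CPM, 11 without a filter, 27 with the replicate block and 0 with limma on FPKM, and ran from 1 (without DMSO replicate 1) to 17 (without daidzein replicate 2) with each library left out. Without a filter and with the replicate block, mt-Nd6 (adjusted p of 0.0495 and 0.0042) and mt-Nd2 (0.014 and 0.0042) passed edgeR's threshold. Across the fits that leave out a library, the median of the large subunit lay between -0.0382 and 0.0376 and that of the small between -0.0443 and 0.0517. The ratio of large to small, 1.0036-fold, lay between 1.0012 and 1.0059 in these fits and was 0.9969 on summed FPKM. The filter of 5 CPM leaves out Mrpl53.

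The labels do not tie replicate numbers to a shared culture or batch, so the numbers were not taken as pairs in the main test. The correlation over genes of the deviations of same-numbered libraries was 0.0916. By chi-square per degree of freedom, same-numbered libraries of different groups (3.51 and 2.23) were closer than libraries of the same group (4.38 and 4.17). Whether the numbers mark pairs was not tested. With the replicate block the smallest adjusted p of a member was 0.171, and 4 members (5.13%) had an unadjusted p under 0.05, against 6.39% of all genes. With 2 libraries per group and a median standard error of 0.0724 (log2) over members, small differences of single genes were not detectable.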

Other observations

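Rows named as pseudogenes of the family lie outside the symbol rule. Mrpl48-ps had 380 and 388 reads in the daidzein libraries and 338 and 341 in the DMSO libraries. In every library this was more than Mrpl53, Mrpl23 and Mrpl35 among the members. Mrps36, with 310 and 399 reads with daidzein and 320 and 330 with DMSO, was also below it except in daidzein replicate 2. Mrpl27-ps had 34 and 33 reads with daidzein and 32 and 50 with DMSO. Mrps36-ps1 had 58 reads in all, Mrps36-ps2 41 and Mrps36-ps3 none. The share of reads exchanged between these rows and their parent genes was not tested.

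Members that share a transcription start region with another gene include Mrps18c, which starts 29 bases from Helq, Mrps34, which starts 29 bases from Eme2, Mrpl54, which starts 26 bases from Apba3, and Mrpl49, which starts 59 bases from Fau, a gene that encodes a cytosolic ribosomal protein. Mrpl46 and Mrps11, a large and a small subunit gene on chromosome 7, overlap each other over 12.2% of the exonic length of Mrpl46. Mrpl46 had 1099 and 1107 reads with daidzein and 1053 and 1011 with DMSO, and Mrps11 had 858 and 1003 with daidzein and 917 and 844 with DMSO.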
